A study of Mus musculus with 8 samples.

Results

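The genes followed across the arrays belong to oxysterol and cholesterol metabolism, and they are Ch25h, Cyp46a1, Cyp27a1, Cyp7b1, Hmgcs1, Sqle, Insig1 and Srebf2. They were found by matching the accession that the array design gives each probe to the RefSeq gene table. They are 8 of the 22911 genes named on the array, and because Cyp7b1 had 2 probes they are read by 9 of its 56605 probes. The set was chosen by the level of Ch25h, which was already known from these same arrays to be higher under the Mrp4-null label, so its genotype difference is given as a description without a test.

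The study compared whole retinas of aged mice, 46 to 55 weeks old by the labels, on one-color Cy3 Agilent arrays. One group was homozygous for a knockout of Mrp4 (gene symbol Abcc4), a membrane transporter that exports drugs and signalling molecules, on a C57BL/6J background. The other group was wild-type (WT), and each group had 4 arrays, called Mrp4-null 1 to 4 and WT 1 to 4 here after the sample numbers of the labels. The methods name tissue from 3 mice and 4 samples per genotype without stating whether samples were pooled, so the p-values measure the spread between these samples, which may be technical.

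Abcc4 itself was higher, not lower, on the arrays labelled Mrp4-null, at a log2 level of 10.75 ± 0.09 (SD, n = 4) against 6.83 ± 0.29 on the WT arrays (limma, adjusted p = 1.36e-05), and every direction below follows the labels. Whether its probe lies in the deleted part is not given in the sources used here. It was therefore not settled whether the labels of the groups are turned, in which case the sign of every genotype difference below would turn, while the relations between genes, taken within groups, would not. The 2 rows of the single slide held 1 genotype each, and their part in any difference cannot be told apart from that of the genotype. A probe is called well above background where the scanner software flagged its spot as clearly brighter than its surroundings. This held for 66.0% to 69.9% of probes per array, and the 75th percentile of the signal intensity was 497 to 786. The 6 rod markers averaged between 16.4 and 16.6 on the log2 scale on every array, so the labelled tissue carried its defining transcripts. After a filter on dim probes, 37085 probes remained, all 9 probes of the followed genes among them, each well above background on all 8 arrays. Levels below are log2 signal intensities made comparable between arrays by quantile normalization. They are compared between arrays, and between probes only to pick probes of similar level or the brightest probe of a gene.

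Cholesterol is made by cells from acetyl units through the mevalonate pathway, in which Hmgcs1 and Sqle are enzymes. Its production is governed by the transcription factor SREBP-2, the product of Srebf2, which Insig1 holds inactive in the endoplasmic reticulum when sterols are plentiful. Oxysterols, the hydroxylated forms of cholesterol, bind INSIG proteins and thereby lower sterol synthesis. Ch25h makes 25-hydroxycholesterol and is known as an interferon-induced gene of macrophages, Cyp46a1 makes the 24-hydroxylated form in neurons, Cyp27a1 makes the 27-hydroxylated form in mitochondria, and Cyp7b1 degrades oxysterols further. In the retina, these reactions handle the cholesterol of photoreceptors and glia.

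The start regions of the genes are shown because the question asked here was whether genes under SREBP-2 control follow Ch25h, and SREBP-2 acts through sterol regulatory elements near the start. Each sequence below is the 250 bases before the annotated start from RefSeq (GRCm38.p6), read 5′ to 3′ along the gene, and 6 of the 8 genes had an entry. The regions of Cyp46a1 and Cyp27a1, which also had entries, are not printed. Capitals mark matches on either strand to TCACNCCAC (a form of the sterol regulatory element), CCAAT (the box bound by NF-Y) or GGGCGG (the box bound by Sp1).
Hmgcs1, chr13:119690101-119690350, plus strand: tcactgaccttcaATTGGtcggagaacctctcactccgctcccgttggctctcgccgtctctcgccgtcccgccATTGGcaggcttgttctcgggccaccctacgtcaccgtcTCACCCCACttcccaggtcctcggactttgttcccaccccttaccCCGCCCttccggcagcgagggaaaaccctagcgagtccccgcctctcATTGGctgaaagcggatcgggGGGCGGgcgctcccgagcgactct
Insig1, chr5:28071162-28071411, plus strand: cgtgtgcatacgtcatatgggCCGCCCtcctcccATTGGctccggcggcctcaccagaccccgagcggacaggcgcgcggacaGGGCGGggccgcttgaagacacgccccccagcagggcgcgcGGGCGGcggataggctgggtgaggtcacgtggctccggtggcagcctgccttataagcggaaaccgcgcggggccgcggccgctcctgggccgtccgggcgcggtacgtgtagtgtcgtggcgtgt
Srebf2, chr15:82147019-82147268, plus strand: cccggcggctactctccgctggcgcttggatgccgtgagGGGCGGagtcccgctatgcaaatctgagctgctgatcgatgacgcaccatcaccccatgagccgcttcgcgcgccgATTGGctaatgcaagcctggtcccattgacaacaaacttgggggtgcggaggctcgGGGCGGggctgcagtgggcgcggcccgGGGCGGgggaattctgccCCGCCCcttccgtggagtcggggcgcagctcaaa
Ch25h, chr19:34475149-34475398, minus strand: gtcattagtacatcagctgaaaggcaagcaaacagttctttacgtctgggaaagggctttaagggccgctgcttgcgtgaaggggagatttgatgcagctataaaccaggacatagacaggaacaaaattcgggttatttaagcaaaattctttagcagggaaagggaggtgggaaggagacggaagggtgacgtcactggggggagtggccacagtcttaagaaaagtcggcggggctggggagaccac
Of these, the Hmgcs1 region held TCACNCCAC, from 137 to 129 bases before the start, where its letters are TCACCCCAC. That motif occurred in 1.05% of the 32851 regions of the same length in the table, against 33.8% for CCAAT and 32.7% for GGGCGG. Hmgcs1 held 3 CCAAT boxes and 2 GGGCGG boxes, Insig1 held 1 and 3, and Srebf2 held 1 and 4, with no overlap between them. In the Ch25h region none of these letters was found. It also lacked a form of the interferon response element, GAAA repeated after a gap of 2 bases. This form was searched after the values were seen, and it occurred in 2.98% of all regions and in 5 of the 8 regions available for a list of 10 interferon response genes. A match is a description of the letters and not evidence of binding. Only these exact forms were searched, so a region without a match may still hold another form of the element.

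Ch25h stood highest on 1 array and was low elsewhere. Before normalization, its signal intensity was 75.03, 44.9, 307.8 and 49.6 on Mrp4-null 1 to 4 and 40.0, 31.3, 19.9 and 13.7 on WT 1 to 4. The normalized log2 levels were 6.06, 5.71, 8.08 and 5.56 under the Mrp4-null label and 5.20, 4.83, 4.57 and 4.10 in WT. The lowest array labelled Mrp4-null lay above the highest WT array, so the groups did not overlap, while Mrp4-null 3 lay well apart from the other 3 of its own group. Because the gene was chosen for this pattern, its place among the 2.44% of all retained probes that did not overlap in this direction is read no further. The means were 6.35 ± 1.17 (SD, n = 4) and 4.67 ± 0.46 (n = 4), a difference of 1.68 on the log2 scale or 3.21-fold. Without Mrp4-null 3 the difference was 1.11, and with normexp background correction in place of the software's it was 0.83. That correction also adds an offset of 50 to each signal, which is large beside most Ch25h signals. The value of 0.83 is therefore not on the same scale as 1.68.

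The spread of Ch25h within groups was large for a probe of its brightness, and Mrp4-null 3 carried much of it. Its pooled SD over the 2 groups was 0.89 on the log2 scale, whereas the 1001 probes of most similar level had a median of 0.26, and 99.3% of them had a smaller SD than Ch25h. Over the 7 arrays without Mrp4-null 3 its pooled SD was 0.40 against a median of 0.26, and 79.5% had a smaller one. Of the other genes followed, Hmgcs1 was the most variable for its level, with a pooled SD of 0.20 against 0.11 for its neighbours in level. Sqle was among the least variable at 0.09 against 0.12. Since retinas were measured whole, a change in the number of cells of a type and a change in RNA per cell cannot be told apart.

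**Figure D1:**
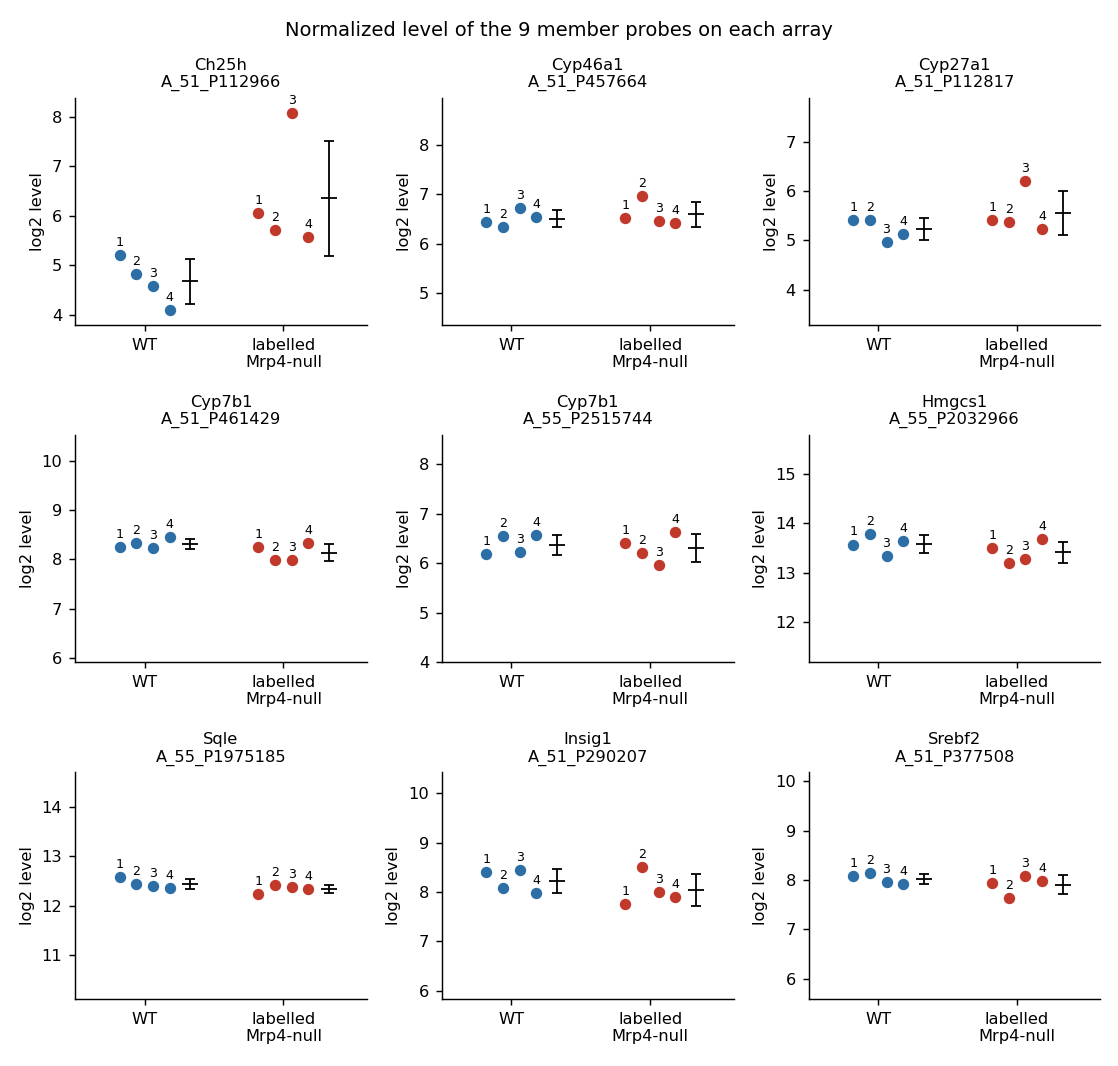
Normalized log2 level of each of the 9 probes (vertical axis, every panel spanning the same number of log2 units) on the 4 WT arrays (blue) and the 4 arrays labelled Mrp4-null (red), numbered by sample, with the mean and SD of each group as bars. Ch25h spreads from 4.10 to 8.08, whereas Sqle stays between 12.23 and 12.58 on all 8 arrays.

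Among the enzymes that act beside Ch25h, none passed the test between genotypes. A call needed both a change of 1.5-fold or more and a Benjamini-Hochberg adjusted p under 0.05 in limma. Limma called 0 of the 8 probes of the other 7 genes, where 0.545% of all retained probes were called (0.256% higher and 0.289% lower under the Mrp4-null label). None of these 8 probes had an unadjusted p under 0.05, against 6.46% of all probes. The smallest adjusted p among them was 0.945, and over 17 alternative settings the lowest that any of them reached was 0.497.

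Cyp27a1, the mitochondrial sterol 27-hydroxylase, had levels of 5.42, 5.37, 6.21 and 5.24 on Mrp4-null 1 to 4. Its WT levels were 5.42, 5.42, 4.96 and 5.13. The arrays overlapped, apart from Mrp4-null 3, which lay above the WT range. The difference was 0.33 (95% confidence interval -0.17 to 0.82, limma adjusted p = 0.9999), and it was 0.11 without Mrp4-null 3.

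Cyp46a1, the neuronal cholesterol 24-hydroxylase, had levels of 6.52, 6.96, 6.47 and 6.43 under the Mrp4-null label. In WT they were 6.44, 6.34, 6.73 and 6.54. The groups overlapped, and the high value was on Mrp4-null 2 rather than on the array where Ch25h was high. The difference was 0.08 (95% confidence interval -0.24 to 0.40, limma adjusted p = 0.9999) and changed sign to -0.04 without Mrp4-null 2.

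Cyp7b1, the oxysterol 7-hydroxylase, was read by 2 probes. The probe A_51_P461429 gave 8.25, 7.98, 7.99 and 8.32 under the Mrp4-null label and 8.25, 8.32, 8.24 and 8.46 in WT. A_55_P2515744 gave 6.42, 6.20, 5.96 and 6.63 and then 6.19, 6.54, 6.22 and 6.56. Both probes overlapped between groups, with differences of -0.18 (95% confidence interval -0.42 to 0.06, limma adjusted p = 0.945) and -0.07 (-0.44 to 0.29). Their deviations from the group means ran together across the arrays, with Pearson r = 0.89, and the sign of the second probe's difference turned to 0.04 without Mrp4-null 3.

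The sterol synthesis enzymes followed here had small negative differences, neither past the test. Hmgcs1, which condenses acetyl units into HMG-CoA, had levels of 13.50, 13.20, 13.28 and 13.68 under the Mrp4-null label and 13.57, 13.78, 13.34 and 13.64 in WT. Its difference was -0.17 (95% confidence interval -0.48 to 0.14, limma adjusted p = 0.9999). Sqle, the squalene epoxidase, had levels of 12.23, 12.42, 12.38 and 12.35 against 12.58, 12.43, 12.40 and 12.35. Its difference was -0.10, and its interval of -0.28 to 0.09 was the narrowest among the 9 probes. Both genes overlapped between groups.

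The control genes of the pathway overlapped as well. Insig1, the sterol sensor partner, had levels of 7.75, 8.50, 8.00 and 7.90 under the Mrp4-null label and 8.40, 8.07, 8.45 and 7.97 in WT, a difference of -0.19 (95% confidence interval -0.60 to 0.22, limma adjusted p = 0.9999). Srebf2 had levels of 7.94, 7.63, 8.08 and 7.97 against 8.08, 8.14, 7.95 and 7.92, a difference of -0.12 (-0.37 to 0.14, limma adjusted p = 0.9999). Hmgcs1, Sqle, Insig1 and Srebf2 thus all had negative values, none of them past the test, as had 19746 of all 37085 retained probes. With each array left out in turn, the difference ran from -0.26 to -0.09 for Hmgcs1 and from -0.13 to -0.05 for Sqle. It ran from -0.34 to -0.09 for Insig1 and from -0.18 to -0.03 for Srebf2.

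Whether sterol genes follow Ch25h was asked from array to array, after removing the genotype means that the choice of Ch25h had fixed. Each level was taken as its deviation from the mean of its own group, and limma fitted the Ch25h level beside genotype for each of the other 37084 retained probes. The slope is the log2 change of a gene per log2 unit of Ch25h. Exact two-sided permutation tests of Pearson r and Spearman rho ran over all 576 rearrangements of arrays within groups, with 0.00174 as the smallest p they can give. Limma called 0 of the 8 probes of the other 7 genes at an adjusted p under 0.05, where 0.0162% of all probes were called (0.0135% with a positive slope).

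For the 4 genes of sterol synthesis and its control, no relation passed the test. Hmgcs1 had r = -0.29 (exact permutation p = 0.660) and rho = -0.29 (exact permutation p = 0.563), with a slope of -0.07 (95% confidence interval -0.28 to 0.14, limma adjusted p = 0.966). Sqle had r = 0.35 (exact permutation p = 0.394) and rho = 0.24 (exact permutation p = 0.609), with a slope of 0.04 (-0.09 to 0.16, limma adjusted p = 0.967). Insig1 had r = 0.02 (exact permutation p = 0.972) and rho = 0.07 (exact permutation p = 0.906), with a slope of 0.01 (-0.29 to 0.30, limma adjusted p = 0.998). Each interval included 0 and values on both sides of it. The array with the most Ch25h, Mrp4-null 3, was in the middle of the range for Insig1 and Sqle. Srebf2 had the highest r of the 4, at 0.64 (exact permutation p = 0.257) with rho = 0.57 (exact permutation p = 0.201) and a slope of 0.11 (-0.04 to 0.26, limma adjusted p = 0.900).

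The median of the 8 Ch25h deviations lay below 0, and the 2 arrays farthest from that median were Mrp4-null 3, at a distance of 1.92, and WT 1, at 0.72. Leaving out both changed the sign of r for 3 of the 4 genes. Over the remaining 6 arrays r was 0.02 for Hmgcs1, -0.08 for Sqle, -0.04 for Insig1 and 0.44 for Srebf2. Without Mrp4-null 3 alone, r was 0.003 for Hmgcs1, 0.47 for Sqle, 0.17 for Insig1 and 0.46 for Srebf2. The values of r near 0 therefore have no settled sign.

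**Figure D2:**
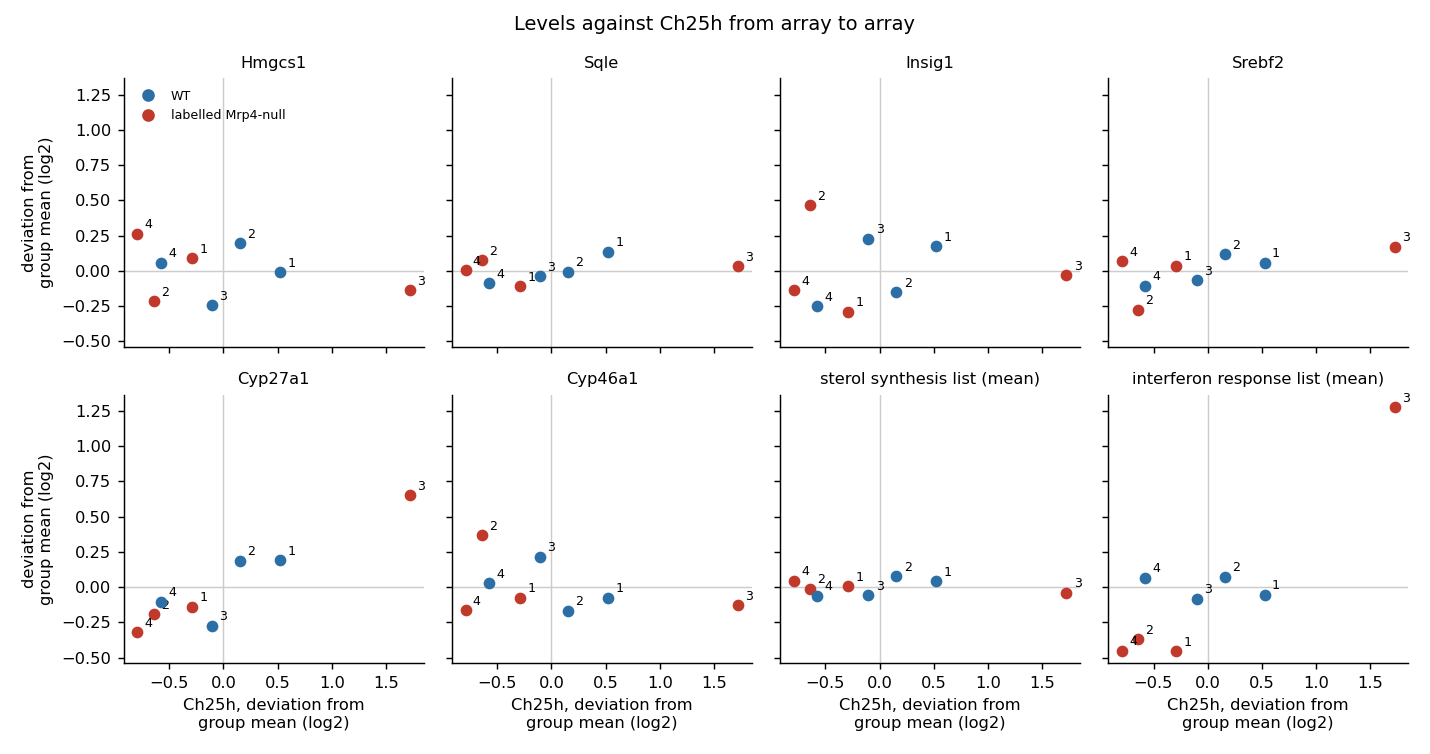
Deviation of Ch25h from its group mean (horizontal axis, log2) against that of 6 genes and of the mean of 2 gene lists (vertical axis, log2), 1 point per array, WT in blue and arrays labelled Mrp4-null in red, numbered by sample. Mrp4-null 3 lies at the far right in each panel, level with the other arrays for Hmgcs1, Sqle and Insig1 and above them for Cyp27a1 and the interferon response list.

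Of the oxysterol enzymes, Cyp27a1 ran closest to Ch25h. Its r was 0.94 (exact permutation p = 0.0191) and its rho 0.83 (exact permutation p = 0.0382), with a slope of 0.37 (95% confidence interval 0.22 to 0.52), and 0.332% of all probes had an r as high. It did not pass the adjustment over all 37084 probes (limma adjusted p = 0.147). Over the 6 arrays left without Mrp4-null 3 and WT 1, r was 0.56, and without Mrp4-null 3 alone it was 0.71.

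The Cyp27a1 spot on Mrp4-null 3 had an unusual surrounding. The median of its local background was 174, above the median of the spot itself at 118.5, and the software marked that background as an outlier, as it did on Mrp4-null 1, where it was 22. On the other 7 arrays the local background of this probe lay between 22 and 24. Only 17 spots of that array (0.0287%) had a local background above 100, and no spot of the other 7 arrays did. The Ch25h spot on the same array had a background of 27 and a spot median of 374.5. With normexp correction, which also starts from the median signals and adds an offset, the r of Cyp27a1 turned to -0.89 and its genotype difference to -0.15. The same correction gave 193 calls among all probes in the relation to Ch25h, and a 1st percentile of signal of 82.7 on Mrp4-null 3 against 54.8 to 55.9 on the other arrays. The part of the local background in the Cyp27a1 values was not tested.

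Cyp46a1 and Cyp7b1 had negative values of r. Cyp46a1 had r = -0.36 (exact permutation p = 0.453) and rho = -0.24 (exact permutation p = 0.609), and r was 0.02 when arrays were shifted to a common 75th percentile instead. For the first Cyp7b1 probe r was -0.56 (exact permutation p = 0.248, limma adjusted p = 0.912) and for the second -0.75 (exact permutation p = 0.0712, limma adjusted p = 0.8288). The second probe had rho = -0.76 (exact permutation p = 0.0486) and a slope of -0.21 (95% confidence interval -0.40 to -0.02), and the first had rho = -0.43 (exact permutation p = 0.443) and a slope of -0.09 (-0.24 to 0.06). Leaving out Mrp4-null 2 gave r = -0.92 for the first and -0.88 for the second. Without Mrp4-null 3 and WT 1 they were -0.30 and -0.24.

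The 9 probes also varied with each other. Over their 36 pairs, the closest positive pair apart from Ch25h and Cyp27a1 and the 2 Cyp7b1 probes was Hmgcs1 with either Cyp7b1 probe, with r = 0.82 for both. The most opposed pair was Cyp46a1 and Srebf2 at -0.91, followed by Insig1 and the first Cyp7b1 probe at -0.78 and Cyp46a1 and Hmgcs1 at -0.77. Hmgcs1 and Sqle, which serve the same pathway, had r = -0.26, and Hmgcs1 and Insig1 -0.75. These are descriptions over 8 arrays that share the same normalization, and their order depends on single arrays. Without Mrp4-null 3, Cyp46a1 and Hmgcs1 were the most opposed pair at -0.95, with Cyp46a1 and Srebf2 at -0.93. The r of Hmgcs1 and Srebf2 moved from 0.48 to 0.80.

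Signal strength moved with Cyp46a1 and, less firmly, with Srebf2. Each level was set against the array's 75th percentile of log2 signal intensity, also as a deviation from the group mean, for the 9 probes and without adjustment. Cyp46a1 had r = -0.95 (exact permutation p = 0.00868) and rho = -0.81 (exact permutation p = 0.0330), and 1.81% of all probes had a value of r as far from 0. Srebf2 had r = 0.89 (exact permutation p = 0.0295) and rho = 0.64 (exact permutation p = 0.115), and 7.99% of all probes were as far from 0. For Hmgcs1 r was 0.73 and for Insig1 -0.68, sizes that 30.3% and 38.2% of all probes reached. For Ch25h r was 0.37 (exact permutation p = 0.422) and for Sqle -0.05 (exact permutation p = 0.903). The 75th percentile was lowest on Mrp4-null 2, WT 3 and WT 4, and the part of signal strength in the pairs above was not tested.

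**Figure D3:**
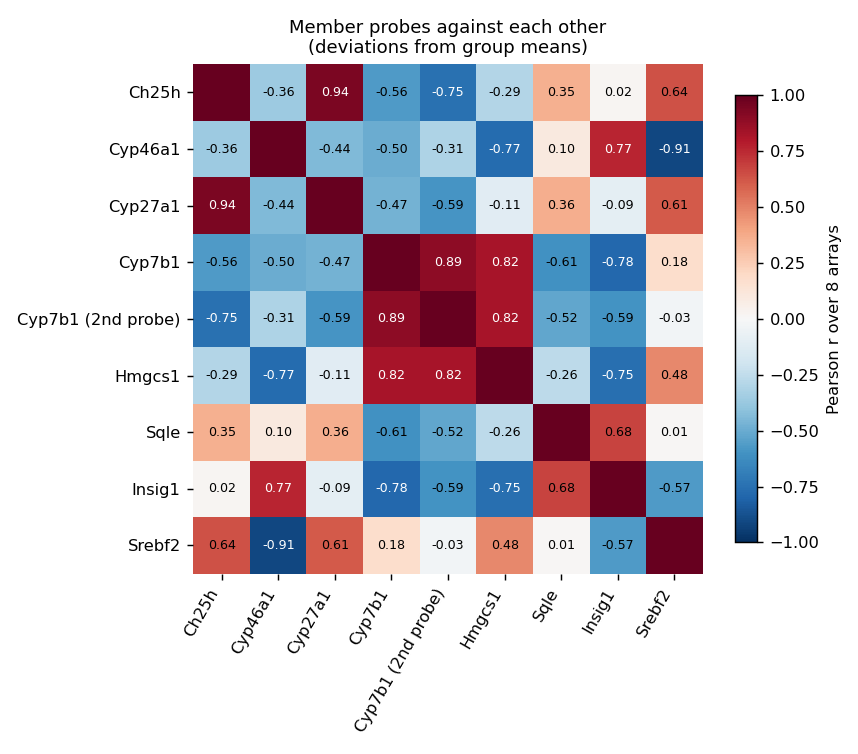
Pearson r between the deviations of every pair of the 9 probes from their group means over 8 arrays, printed in each cell and colored from -1 (blue) to 1 (red). Ch25h is near 0 with Insig1 and at 0.94 with Cyp27a1, while Cyp46a1 opposes Srebf2 at -0.91.

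The wider pathway gave no call either. Over 5 lists with 63 genes of sterol synthesis, SREBP control and uptake, oxysterol and bile acid enzymes, oxysterol receptors and cholesterol export, and cholesterol storage and transport, 56 genes were measured, and limma called 0 of the 55 other than Ch25h between genotypes. Of these 55, 3 had an unadjusted p under 0.05 (Fdps, Cyp39a1 and Lcat), beside 6.46% of all probes. In the relation to Ch25h, limma called 0 of the 55, and 5 had an unadjusted p under 0.05, all with a positive slope (Cyp27a1, Cyp39a1, Nr1h2, Star and Tspo, the last 4 of these named after their values were seen), where 5.77% of all probes had such a p and 3.21% had it with a positive slope. This count reads each gene by its brightest probe, and the second Cyp7b1 probe, outside it, had such a p with a negative slope.

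In the sterol synthesis list, 19 of 20 genes were measured and Acat2 had no matching probe. Of the 19, 17 had negative and 2 positive differences, none past the test, where 19746 of all 37085 retained probes had negative ones. The genes share arrays and normalization, so this is not a count of independent values. Their median was -0.08, where all retained probes had -0.01. The mean level of the list was 11.18, 11.17, 11.13 and 11.22 on Mrp4-null 1 to 4 and 11.29, 11.33, 11.20 and 11.19 on WT 1 to 4. The most negative value was that of Fdps, the farnesyl diphosphate synthase. Its levels were 12.55, 12.68, 12.51 and 12.57 under the Mrp4-null label and 12.75, 12.84, 12.96 and 12.83 in WT, and the groups did not overlap, which held in this direction for 2.36% of all probes. Its difference was -0.27 (SE 0.08, limma adjusted p = 0.393). The largest positive value was 0.20 for Tm7sf2, a sterol reductase (limma adjusted p = 0.9999).

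Other targets of SREBP-2 named here did not pass the test either. Idi1, the isopentenyl diphosphate isomerase, differed by -0.18 (SE 0.11, limma adjusted p = 0.977). Cyp51, the lanosterol demethylase, differed by -0.19 (SE 0.09, limma adjusted p = 0.8293). The median r of the 19 genes with Ch25h was 0.02, where all probes had -0.02, and it was 0.29 over the 7 arrays without Mrp4-null 3.

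All 11 genes of SREBP control and uptake were measured, with a median difference of -0.03 and a median r of 0.02. That median r was 0.18 without Mrp4-null 3 and 0.39 without both Mrp4-null 3 and WT 1. Mbtps2, a protease that cuts SREBP, had the lowest difference at -0.19 (SE 0.08, limma adjusted p = 0.777). Scap, the SREBP escort protein, had the highest at 0.12 (SE 0.09). Srebf1, which encodes SREBP-1 and is a target of the oxysterol receptor LXR, differed by -0.10 (SE 0.13) with r = 0.53 (exact permutation p = 0.191), and Mylip, a ubiquitin ligase and LXR target, by 0.08 (SE 0.20) with r = -0.11 (exact permutation p = 0.896).

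Of the 10 oxysterol and bile acid enzymes, 6 were measured, and Cyp7a1, Cyp11a1, Cyp8b1 and Akr1d1 were well above background on 0 arrays. Beside Ch25h, Cyp27a1 at 0.33 and Cyp39a1 at 0.32 had the largest positive differences. Cyp39a1, an oxysterol 7-hydroxylase, had levels of 9.42, 9.50, 9.90 and 9.55 under the Mrp4-null label and 9.45, 9.31, 9.11 and 9.24 in WT, with Mrp4-null 3 highest (limma adjusted p = 0.670). Its r with Ch25h was 0.83 (exact permutation p = 0.0642) and was 0.43 without Mrp4-null 3 and -0.19 without both Mrp4-null 3 and WT 1. The first Cyp7b1 probe, at -0.18, was the lowest of the list.

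For the oxysterol receptors and cholesterol export genes, 9 of 10 were measured, and Gpr183, the receptor for the product of Ch25h and Cyp7b1 in immune cells, was well above background on 5 of 8 arrays and was not retained. The targets of LXR gave no called value, with -0.07 (SE 0.20) for Abca1 and -0.14 (SE 0.08) for Abcg1, both exporters of cholesterol. Abcg1 was the lowest of the list and Nr1h3, which encodes one of the LXR receptors, the highest at 0.10 (SE 0.09). Abca1 had r = -0.11 with Ch25h (exact permutation p = 0.861) and Abcg1 -0.07 (exact permutation p = 0.845). Nr1h2, the other LXR gene, had the highest r of the list at 0.85 (exact permutation p = 0.0139, limma adjusted p = 0.778), and it was 0.80 without Mrp4-null 3.

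Of the storage and transport genes, 11 of 12 were measured and Soat2 was well above background on 0 arrays. Lcat, which esterifies cholesterol in lipoproteins, had the largest difference at 0.41 (SE 0.12, limma adjusted p = 0.398), with levels of 5.30 to 5.75 under the Mrp4-null label and 4.98 to 5.27 in WT that did not overlap, as held in this direction for 2.44% of all probes. Npc2, a carrier of lysosomal cholesterol, was the lowest at -0.07 (SE 0.10). The list had a median r of 0.52 with Ch25h over 8 arrays and 0.09 without Mrp4-null 3, and Star and Tspo, both of mitochondrial cholesterol import, reached 0.90 (limma adjusted p = 0.515) and 0.80 (limma adjusted p = 0.631). Without Mrp4-null 3, r was 0.83 for Star and 0.02 for Tspo.

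Genes of immune activation had high values of r with Ch25h over all 8 arrays. A list of 10 interferon response genes had mean levels of 8.83, 8.92, 10.57 and 8.83 on Mrp4-null 1 to 4 and 8.81, 8.93, 8.78 and 8.93 on WT 1 to 4. All 10 had a positive slope with an unadjusted p under 0.05, beside 3.21% of all probes, none passed the adjustment, and their median r was 0.89. A list of 12 microglia and macrophage markers had mean levels of 8.70, 8.65, 9.45 and 8.56 against 8.68, 8.68, 8.72 and 8.63. Of these, 9 had a positive slope with an unadjusted p under 0.05, and the median r was 0.86. Both lists stood high on Mrp4-null 3, the array with the most Ch25h, and level on the other 7 arrays. Over those 7 arrays the median r was 0.20 for the interferon list and 0.25 for the microglia list. P2ry12, a marker of resting microglia, had r = -0.30 over all arrays, whereas C1qb, a complement gene of microglia, had 0.96 (limma adjusted p = 0.0918). The part of these cells or of this response in the Ch25h level was not tested.

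**Figure D4:**
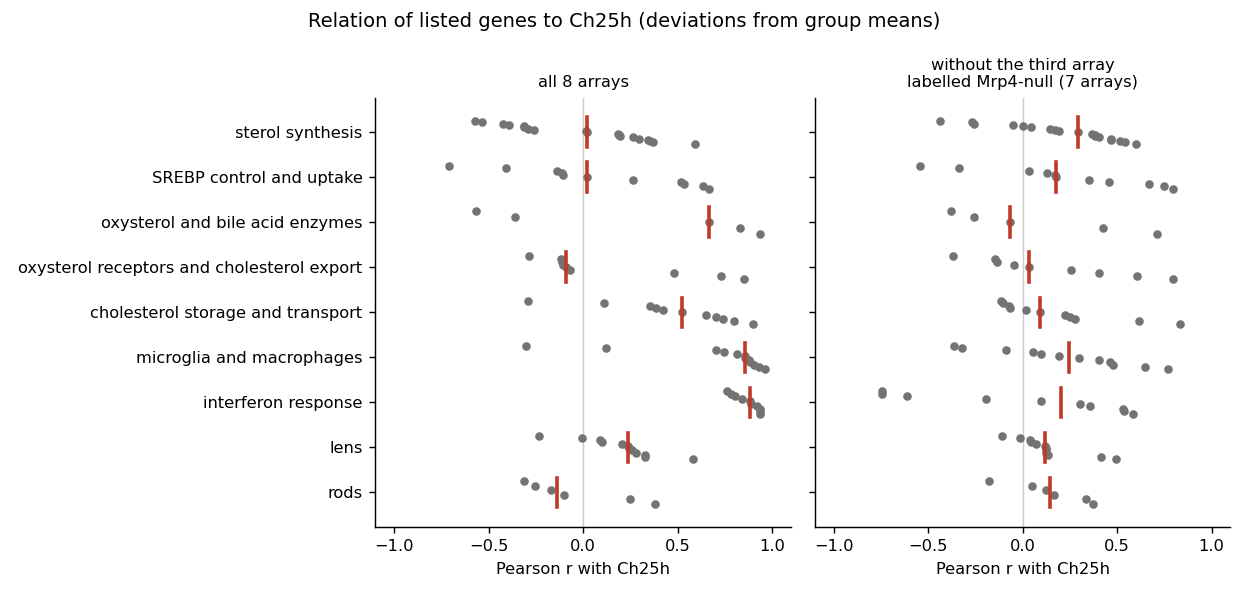
Pearson r of each listed gene with Ch25h (horizontal axis) for 9 gene lists, 1 point per gene and a red bar at the median, over all 8 arrays (left) and over 7 arrays without Mrp4-null 3 (right). The interferon response median moves from 0.89 to 0.20 and the microglia median from 0.86 to 0.25. The sterol synthesis median moves from 0.02 to 0.29, with points on both sides of 0 in each panel and 15 of 19 above 0 on the right.

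Of the 16093 genes with a retained probe, 55 were of the sterol lists apart from Ch25h. With so small a share, their absence among the top 5 genes is not a result about them. The 5 genes whose deviations were most like those of Ch25h over the 8 arrays were outside these lists. They were Tmem176b, a membrane protein of myeloid cells (r = 0.99), Mybpc2, a muscle myosin-binding protein (0.99), Edn2, an endothelin (0.99), H2-Q10, a class I histocompatibility gene (0.99), and Espn, an actin-bundling protein (0.98). Edn2 had levels of 8.999, 8.76, 12.09 and 8.61 under the Mrp4-null label and 8.90, 8.55, 7.94 and 7.86 in WT. This likeness is what it was picked for. Without Mrp4-null 3 its r was 0.93.

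Limma called 6 of the 37084 probes in the relation to Ch25h: Edn2, Mybpc2, Cfb, a complement factor, Lrg1, a secreted glycoprotein, Ccl2, a chemokine that draws monocytes, and 1 unnamed probe with a negative slope. Their adjusted p lay between 0.0397 and 0.0480, and without Mrp4-null 3 each was 0.9999. Over those 7 arrays r was 0.83 to 0.96 for the 5 named genes and -0.88 for the unnamed probe, values that the choice of these probes from arrays including the 7 makes high. Ccl2 had levels of 4.54, 4.82, 8.55 and 4.40 under the Mrp4-null label and 5.10, 4.03, 4.37 and 3.16 in WT. Cfb had 4.38, 4.17, 7.67 and 4.09 against 4.10, 3.97, 3.93 and 2.71. Both were highest on Mrp4-null 3 and lowest on WT 4, and they were picked for such likeness to Ch25h. Of all probes, 2 were called when every array had to be well above background.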

How the data were processed

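Retinal RNA was measured on 8 one-color arrays. The authors deposited the scanner output of Agilent Feature Extraction 11.0.1.1 for each array, in which signal intensity is background-subtracted and detrended within the array and not normalized between arrays. A deposited series file held the mean signal intensity per probe. Control and outlier spots were left out, and log2 intensities were averaged per probe. A probe was kept if, in 1 genotype or both, it was well above background wherever it was measured (in 3 or more arrays there and 2 or more in the other). Kept probes were quantile normalized, as in the study's methods. Accessions were matched to RefSeq (GRCm38.p6) for 32994 probes (58.3%). The array was designed on an older build, so no probe position is given.

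Genotypes were compared with limma 3.58.1 (R 4.3.3, with 1.17.8 of data.table), with genotype as the only term, and relations to Ch25h with its level as a further term, by scripts tested on simulated data. Precision is limited by having 4 arrays per genotype. Members and gene lists were chosen with earlier results of these data known.

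Genes named are the members, set targets of SREBP-2 and LXR, Gpr183, Abcc4, called genes of the sterol lists, the most positive and most negative difference of each sterol list (where that was a member, the next too), and the 5 genes most like Ch25h. Others, among them called genes outside the sterol lists, P2ry12 and C1qb, were named after their values were seen. Some genes set by this rule are not reported here. A listed gene was read by its brightest kept probe. Marker lists were microglia and macrophages, interferon response, lens, rods, Muller glia, ganglion cells, pigment epithelium and endothelium. Alternatives were a 75th percentile shift, normexp (offset 50, median spot and background signals), other filters, outlier spots kept, the deposited series file, the sample number as a block, an intensity trend with robust variances, no genotype term, Spearman rho, all probes of a gene, each array left out, and a local pooled error test written here after the methods.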

Additional observations from a re-analysis of the deposited data

Results flagged for a closer look

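In each group of 4 arrays, the gap between the most extreme array and its nearest neighbour was divided by the range of the group. Of 44 groups screened (the 9 member probes, the 5 sterol lists and the 8 marker lists, in both genotypes), 4 were past the 95% limit, where chance gives about 1 in 20, and all 4 were of the arrays labelled Mrp4-null. For Cyp46a1 the share was 0.834, because Mrp4-null 2 lay at a log2 level of 6.96 and the others between 6.43 and 6.52. For the mean of the interferon response list it was 0.952 and for the microglia and macrophage list 0.8416, and in both Mrp4-null 3 was the high array. For the mean of the endothelium list it was 0.8816, with Mrp4-null 2 low at 8.35 and the others between 8.79 and 8.85. Ch25h itself was not past the limit in either group.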

How the results depend on the processing

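With 4 arrays per genotype, calls of single probes were sensitive to each array, and values of r near 0 had no settled sign. The probes of the members other than Ch25h and the other genes of the sterol lists had 0 calls in the genotype contrast and 0 members were called in the relation to Ch25h under every alternative run. In several of these runs no probe at all was called in that relation, so 0 members was the only possible outcome there. In the main run 0.545% of all probes were called between genotypes and 0.0162% in the relation. For so few probes, 0 calls is near those shares. The Ch25h difference ran from 0.83, with normexp, to 1.94 and was 1.11 without Mrp4-null 3. Ch25h was chosen for being higher under the Mrp4-null label on these arrays, so the sign of these values is read no further.

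A 75th percentile shift gave r = 0.016 for Cyp46a1 and 0.82 for Srebf2. Normexp gave a Cyp27a1 difference of -0.15, r = -0.89 for Cyp27a1 and -0.088 for Insig1, and 193 calls in the relation to Ch25h. With normexp the 1st percentile of signal was 82.7 on Mrp4-null 3 and 54.8 to 55.9 elsewhere, and the cause of the calls was not tested. The relation to Ch25h had 0 calls with no filter, 2 with probes above background on all 8 arrays, and 0 with no genotype term. With no genotype term, r was -0.19 for Sqle, -0.25 for Insig1 and 0.09 for Srebf2.

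The sample numbers did not pair the arrays: deviations of arrays with the same number correlated at -0.29, -0.69, 0.03 and 0.41. With the number as a replicate block, 30 probes were called higher and 41 lower, the relation to Ch25h had 0 calls, and r was 0.38 for Hmgcs1 and -0.35 for Insig1.

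Without the 2 arrays farthest from the median of the Ch25h deviations (Mrp4-null 3 and WT 1), an alternative added after seeing the data, r was 0.025 for Hmgcs1, -0.082 for Sqle and -0.040 for Insig1. Leaving out each array in turn gave 59 to 86 probes called higher (63 without WT 3 and 59 without WT 4) and 58 to 97 called lower (71 without Mrp4-null 4, 70 without WT 1, 65 without WT 2, 63 without WT 3, 58 without WT 4). It gave 0 to 25 calls in the relation to Ch25h, with 25 without WT 4, 2 without WT 3 and 0 without each of the other 6 arrays. The Cyp46a1 difference ran from -0.042 to 0.16 and that of the second Cyp7b1 probe from -0.18 to 0.040, while r ran from -0.57 to 0.0029 for Hmgcs1 and from -0.12 to 0.46 for Insig1, below 0 without Mrp4-null 1, Mrp4-null 4, WT 1 or WT 4. The causes were not tested.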

Other observations

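Marker lists of other cell types were read beside the sterol genes. The lens list of crystallins and fiber proteins averaged 6.12 to 8.43 under the Mrp4-null label and 7.39 to 9.79 in WT. All 12 lens genes had negative differences, with a median of -1.42, of which 0 were called in limma, beside 0.545% of all probes, and 5 had an unadjusted p under 0.05, beside 6.46%. On Mrp4-null 3, where Ch25h was highest, the lens mean was 7.58, and the median r of the lens genes with Ch25h was 0.24. The median r with Ch25h was -0.14 for rods, -0.01 for Muller glia, 0.04 for ganglion cells, -0.26 for pigment epithelium and 0.45 for endothelium. Without Mrp4-null 3 these medians were 0.14, 0.42, 0.25, 0.60 and 0.44 in the same order, and that of the lens genes was 0.12. The signs for rods, Muller glia and pigment epithelium thus turned with 1 array. Limma called 0 genes of these lists in either comparison. The part of these cell types in the levels was not tested.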
